A study of Mus musculus with 8 samples.

Results

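The Hox cluster genes are the homeobox genes of the 4 mouse clusters HoxA, HoxB, HoxC and HoxD. They were taken as every gene whose symbol is Hoxa, Hoxb, Hoxc or Hoxd followed by a number, leaving out antisense and opposite-strand genes. There were 39 of them among the 49671 genes measured: 11 in HoxA, 10 in HoxB, 9 in HoxC and 9 in HoxD. RNA was sequenced from sorted mammary gland cells of female mice in 8 libraries, 2 in each of 4 groups. All cells were sorted as negative for CD45, CD31 and CD140a and positive for CD24. Cells with low CD29 are called luminal here (40000 cells sorted per library) and cells with high CD29 basal (5000 cells sorted per library). The CD1 luminal and CD1 basal groups came from CD1 mice. The DNp63 luminal and DNp63 basal groups were GFP-positive cells of K8rtTA/TetOCre/Rosa26-DNp63-IRES-GFP mice. In these mice the keratin 8 promoter drives the doxycycline-dependent activator rtTA, which turns on Cre, and Cre releases DNp63 (ΔNp63, the p63 form of basal epithelium) together with GFP. The mice were of mixed backgrounds, and strain, transgene and GFP gate changed together between CD1 and DNp63, so these cannot be told apart. Their ages, the doxycycline schedule of these animals and the gland pair taken are not given in any source used here. Nothing says whether both libraries of a group are from different animals, so the p-values measure the spread between these libraries, which may be technical.

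Hox proteins are homeodomain transcription factors that give cells their position along the head-to-tail axis. Genes with the same number in different clusters are paralogs. Within a cluster they lie in order of number, low numbers being used towards the head and high numbers towards the tail and the limb ends. On DNA many Hox proteins pair with TALE homeodomain cofactors of the Pbx, Meis and Pknox families. Polycomb complexes keep unused Hox genes silent, and Trithorax complexes with Kmt2 enzymes keep used ones active. In the mammary gland, Hoxc8 is known for the placement of the embryonic mammary buds, and the paralogs Hoxa9, Hoxb9 and Hoxd9 together for gland growth in pregnancy.

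Values are reads per 20000000, as the authors scaled them, and each library had 4136969 to 7206694 reads on genes, so that 1 read was worth 2.7752 to 4.8344. A gene without a read in any library can have had a level of up to 1.44 over all libraries, by 3 reads over the total depth and for counting error only. The gates matched their markers: all 9 basal markers were higher in every basal library than in every luminal one, and all 10 luminal markers the other way. Trp63, the gene that encodes p63, stood at 1297 and 1460 in DNp63 luminal against 61 and 45 in CD1 luminal. Markers of other cell types were also read. All 8 adipocyte, all 4 Schwann or nerve, 11 of 12 endothelial and 7 of 8 pericyte markers were higher in every basal library than in every luminal one. The endothelial sum was 38825 to 56108 in basal libraries and 2495 to 4261 in luminal libraries, in spite of the CD31 gate. The pericyte sum was 18966 to 26055 against 4448 to 6254, the adipocyte sum 16039 to 28179 against 471 to 755, and the Schwann or nerve sum 2841 to 4019 against 1154 to 1281. Of these lists the adipocyte markers Adipoq, Cidec, Lep and Plin1 were at 0 in at least 1 library. Cdh5, an endothelial cadherin, stood at 11042 to 15106 in basal libraries. Of 10 fibroblast markers 2 were higher in every basal library and 8 overlapped between the gates, and their sum was 49858 in CD1 luminal library 2 against 9854 in CD1 luminal library 1. Fewer cells of a type and less RNA per cell cannot be told apart in these bulk libraries.

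Hox RNA was mainly found in the basal gate and in the middle of the clusters. The 39 genes summed to 1658 to 2143 per basal library and 152 to 233 per luminal library. HoxA summed to 425 to 540 in basal and 12 to 30 in luminal libraries, and HoxD to 538 to 899 in basal and 8 to 17 in luminal libraries. HoxB, the cluster with the highest luminal sums, had 420 to 556 in basal and 108 to 155 in luminal libraries. HoxC had 154 to 284 in basal and 4 to 88 in luminal libraries, and 88 was CD1 luminal library 2. Counted by paralog number, basal reads were fewest at the tail end of the clusters. The 9 genes numbered 11 to 13 had 2 reads in the 8 libraries together. Of these, 7 had none (Hoxa11, Hoxa13, Hoxb13, Hoxc12, Hoxc13, Hoxd11 and Hoxd12), and Hoxc11 and Hoxd13 had 1 read each. The paralogs numbered 8 had the most reads, with 512 basal reads against 22 luminal reads over 3 genes.

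**Figure D1:**
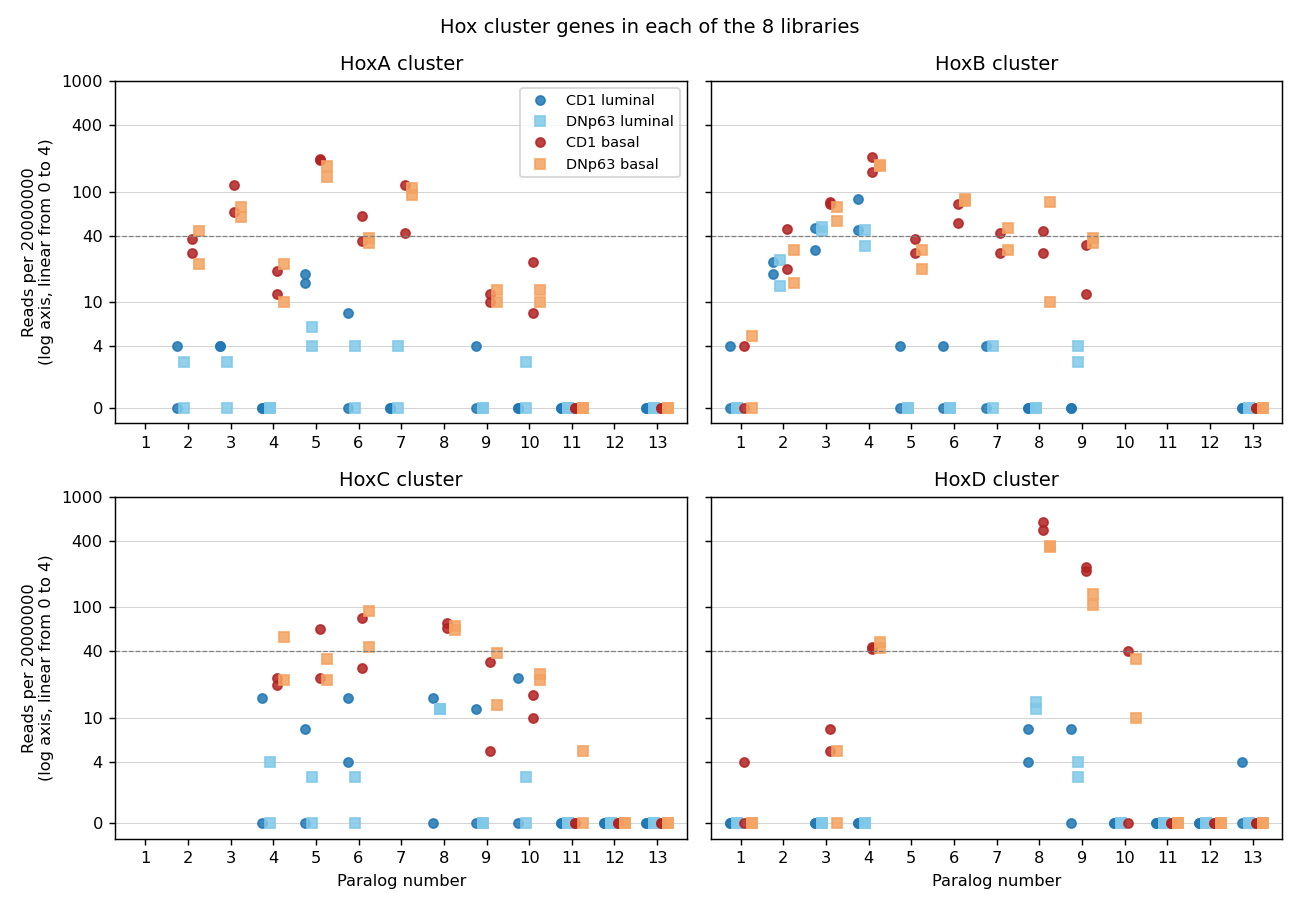
Reads per 20000000 (log axis, linear from 0 to 4) of the Hox cluster genes against paralog number, 1 panel per cluster. Each point is 1 library, blue for luminal and red or orange for basal, circles for CD1 and squares for DNp63, and the dashed line marks 40. Basal points lie above luminal ones for most genes numbered 3 to 9, genes numbered 11 to 13 lie at 0 or at 1 read, and Hoxd8 is highest.

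For 23 of the 39 genes every basal library was above every luminal library, and for none was every basal library below. Of the 39, 32 had a read in any library, and all 23 are among them. Of all 32442 genes with a read in any library, 17.5 percent had their basal libraries all above their luminal ones. The 23 were 9 HoxA, 7 HoxB, 4 HoxC and 3 HoxD genes. Of the other 16, 7 had no read and 9 overlapped: Hoxb1, Hoxb2, Hoxc9, Hoxc10, Hoxc11, Hoxd1, Hoxd3, Hoxd10 and Hoxd13. Leaving out any 1 library gave 23 to 25 genes without overlap, and 25 came from leaving out CD1 luminal library 2, where the share over all genes was 19.5 percent.

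The HoxD cluster (chromosome 2, GRCm38) held the gene with the highest value, per exon length as well. Hoxd8 (ENSMUSG00000027102, chr2:74704615-74707933) had CD1 basal values of 495 and 591 and DNp63 basal values of 350 and 358. Its luminal values were 8 and 4 in CD1 and 14 and 12 in DNp63. All 4 basal libraries lay above the luminal ones, and both CD1 basal libraries above both DNp63 basal ones. In reads this was 256 against 3 in CD1, a 100-fold ratio with a 95% exact interval from 34 to 490, and 157 against 8 in DNp63, 27.2-fold (13.5 to 64.1). These intervals and those below cover counting error only. Hoxd9 (ENSMUSG00000043342, chr2:74697727-74700208), the next gene towards the tail end, was also highest in CD1 basal and next in DNp63 basal cells, while its luminal groups overlapped. Its CD1 basal values were 229 and 212, its DNp63 basal values 106 and 131, its CD1 luminal values 8 and 0 and its DNp63 luminal values 3 and 4. The read ratio of Hoxd9 was 60.6-fold (16.4 to 507) in CD1 and 36.1-fold (9.49 to 306) in DNp63. Hoxd4 (ENSMUSG00000101174) had no read in any luminal library and 42, 44, 43 and 49 in the CD1 and DNp63 basal libraries. Set against a floor of 3 luminal reads per group, this was 7.85-fold in CD1 and 9.25-fold in DNp63. The counting error of the basal reads is not in these ratios. Of the exon bases of Hoxd4, 52.3 percent are shared on the same strand with Hoxd3 or Gm28230, and Hoxd3 itself shares 62.3 percent. Reads of Hoxd3 and Hoxd4 may therefore be miscounted. Hoxd3 had 4 reads in all. Hoxd10, a gene of the lumbar and hindlimb region, had CD1 basal values of 0 and 40, DNp63 basal values of 34 and 10 and was at 0 in luminal libraries. Hoxd11, the next gene, had no read.

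In HoxA (chromosome 6), Hoxa5 was the highest gene. Hoxa5 (ENSMUSG00000038253, chr6:52201754-52204587), needed for lung and thoracic skeleton development, had CD1 basal values of 193 and 196 and DNp63 basal values of 169 and 136. It was at 18 and 15 in CD1 luminal and 6 and 4 in DNp63 luminal. Its 4 groups did not overlap, and the read ratio of basal to luminal was 11.9-fold (6.0 to 26.9) in CD1 and 31.4-fold (10.3 to 156) in DNp63. Hoxa3, which patterns the thymus and parathyroid, was at 65, 116, 72 and 59 in the CD1 and DNp63 basal libraries and at 0 to 4 in luminal ones. Hoxa7 was at 42 and 116 in CD1 basal, 93 and 107 in DNp63 basal, and 4 or 0 in luminal libraries. These 2 genes share 25.4 percent and 20.4 percent of their exon bases with antisense RNAs of the cluster, Hoxaas3 among them, and no source used here gives the strand setting of the counting. Hoxa2, Hoxa4, Hoxa6, Hoxa9 and Hoxa10 were lower, at 8 to 60 in basal libraries and 0 to 8 in luminal ones, and none of them overlapped.

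HoxB (chromosome 11) was the cluster with clear luminal reads, and these lay mostly on Hoxb2, Hoxb3 and Hoxb4 towards its head end. Hoxb1, at that end, had 1 luminal read. Hoxb4 (ENSMUSG00000038692, chr11:96318267-96321638), known for its use in expanding blood stem cells, had 86 and 45 in CD1 luminal and 45 and 32 in DNp63 luminal. Its basal values were 207 and 152 in CD1 and 173 and 170 in DNp63. All basal libraries were higher, but the read ratio was small, 2.71-fold (1.81 to 4.13) in CD1 and 4.39-fold (2.74 to 7.27) in DNp63. Hoxb3 (ENSMUSG00000048763) differed less: 47, 30, 48 and 44 in the CD1 and DNp63 luminal libraries and 78, 80, 72 and 54 in the basal ones. Hoxb2 overlapped, at 14 to 24 in luminal and 15 to 46 in basal libraries, and the intervals of its read ratio spanned 1 in both mice (0.689 to 3.86 and 0.48 to 3.27). Of the exon bases, 52.9 percent of Hoxb3 and 27.3 percent of Hoxb2 are antisense to Hoxb3os. Hoxb3os itself was at 4 to 38 in luminal and 10 to 33 in basal libraries. Hoxb3 and Hoxb4 together made up 22.4 and 27.6 percent of the luminal Hox sum, but 3.78 and 9.33 percent of the basal sum, in which Hoxd8 alone made up 23.8 percent.

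The HoxB genes numbered 5 to 9 had few luminal reads. Hoxb6 stood at 78 and 52 in CD1 basal, 85 and 83 in DNp63 basal, and at 0 apart from 4 in CD1 luminal library 2. Hoxb7 was at 42, 28, 47 and 30 in basal libraries and at 0 or 4 in luminal ones. Hoxb8 had no luminal read, and its basal values were uneven, 28 and 44 in CD1 and 81 and 10 in DNp63. Hoxb5 and Hoxb9 were at 12 to 38 in basal libraries and 0 to 4 in luminal ones.

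HoxC (chromosome 15) had its reads on Hoxc4 to Hoxc10, apart from 1 read on Hoxc11. Hoxc6 (ENSMUSG00000001661) was at 28 and 80 in CD1 basal, 93 and 44 in DNp63 basal, 4 and 15 in CD1 luminal and 3 and 0 in DNp63 luminal. Hoxc8 was even across the basal libraries, at 65, 72, 68 and 63, and stood at 0 and 15 in CD1 luminal and 12 and 12 in DNp63 luminal. Hoxc4, Hoxc5, Hoxc9 and Hoxc10 were at 5 to 64 in basal libraries. Of the 7 HoxC genes with a read, 6 had their highest luminal value in CD1 luminal library 2: Hoxc4 at 15, Hoxc5 at 8, Hoxc6 at 15, Hoxc8 at 15, Hoxc9 at 12 and Hoxc10 at 23. In CD1 luminal library 1 the same cluster had 1 read, at Hoxc6. Of the 18 genes of the other clusters with a luminal read, 5 were highest in CD1 luminal library 2 alone. In that library the fibroblast markers Col1a1 and Pdgfra stood at 11506 and 1049, against 692 and 196 in CD1 luminal library 1. Dcn, of the same marker list, differed less, at 7887 against 6581. Pdgfra encodes CD140a, for which all cells were sorted as negative. The fibroblast sum was 106971 and 129499 in DNp63 basal and 49035 and 73085 in CD1 basal, and the HoxC sum 240 and 264 against 154 and 284. HoxA and HoxD summed to 27 and 8 in CD1 luminal library 2, against 30 and 16 in library 1. The part of other cells in the HoxC values was not tested.

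**Figure D2:**
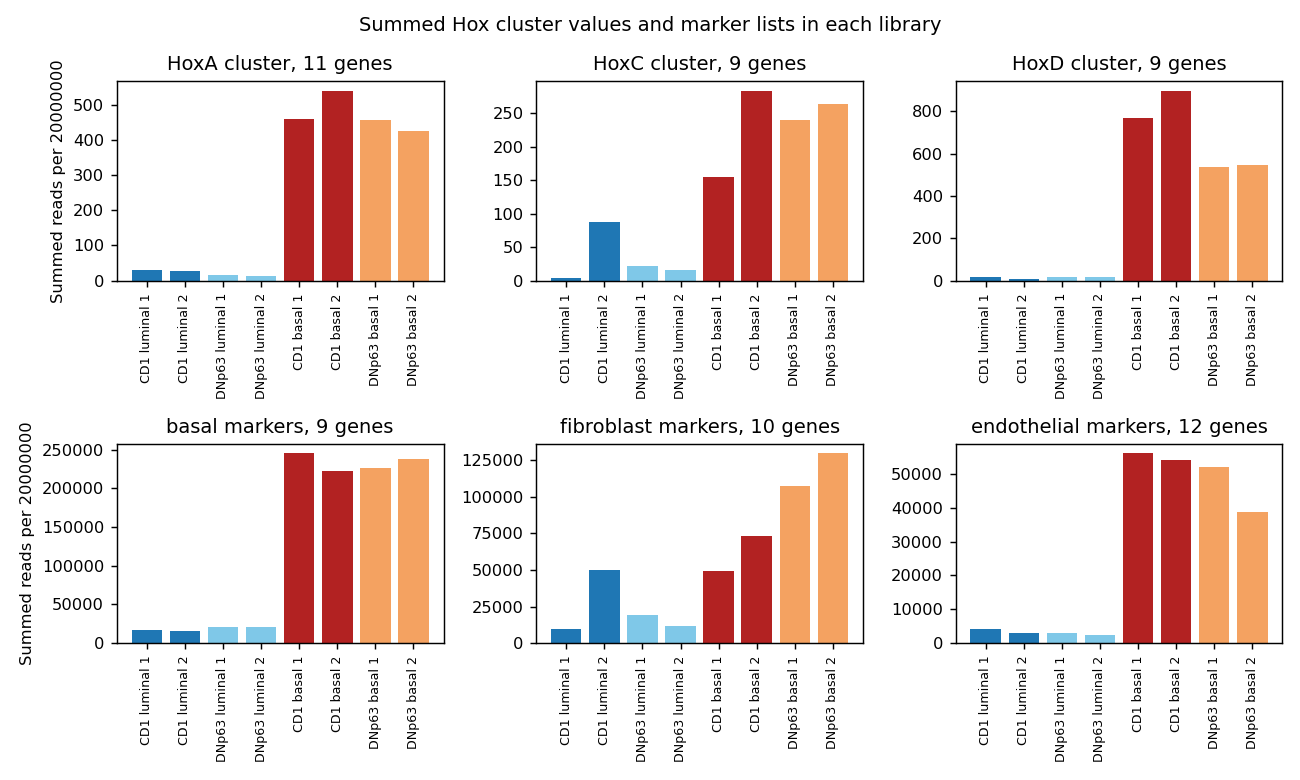
Summed reads per 20000000 of the HoxA, HoxC and HoxD genes (upper row) and of basal, fibroblast and endothelial markers (lower row), 1 bar per library. HoxC and fibroblast sums are both highest among luminal libraries in CD1 luminal library 2 (88 and 49858), while HoxA and HoxD sums are low in all 4 luminal libraries.

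The stretches before the start sites are shown for 4 of these genes: Hoxd8, the highest in basal cells, Hoxd4, without a luminal read, Hoxa5, the highest of HoxA, and Hoxb4, the highest in luminal cells. Each is the 250 bases before the start given by RefSeq on GRCm38.p6, in the direction of the gene, and none holds an exon base of GENCODE M21. They are chr2:74704365-74704614 on the plus strand for Hoxd8, chr2:74721728-74721977 (plus) for Hoxd4, chr6:52204588-52204837 (minus) for Hoxa5 and chr11:96318017-96318266 (plus) for Hoxb4. Capitals mark matches to the TATA box TATAAA and the CCAAT box CCAAT on either strand.
Hoxd8: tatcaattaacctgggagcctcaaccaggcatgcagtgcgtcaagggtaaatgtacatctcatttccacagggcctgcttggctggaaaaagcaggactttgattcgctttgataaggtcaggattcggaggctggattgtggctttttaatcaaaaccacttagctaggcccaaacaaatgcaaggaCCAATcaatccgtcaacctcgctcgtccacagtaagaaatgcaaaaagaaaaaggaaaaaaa
Hoxd4: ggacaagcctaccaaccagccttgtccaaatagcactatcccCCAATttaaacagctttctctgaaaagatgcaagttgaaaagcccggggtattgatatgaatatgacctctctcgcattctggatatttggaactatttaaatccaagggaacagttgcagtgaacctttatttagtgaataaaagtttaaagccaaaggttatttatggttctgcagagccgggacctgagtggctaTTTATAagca
Hoxa5: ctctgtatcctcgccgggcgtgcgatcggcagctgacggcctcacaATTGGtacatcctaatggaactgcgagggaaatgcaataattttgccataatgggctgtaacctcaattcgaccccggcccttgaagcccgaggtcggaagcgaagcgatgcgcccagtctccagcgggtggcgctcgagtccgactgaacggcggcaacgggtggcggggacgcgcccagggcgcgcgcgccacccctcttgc
Hoxb4: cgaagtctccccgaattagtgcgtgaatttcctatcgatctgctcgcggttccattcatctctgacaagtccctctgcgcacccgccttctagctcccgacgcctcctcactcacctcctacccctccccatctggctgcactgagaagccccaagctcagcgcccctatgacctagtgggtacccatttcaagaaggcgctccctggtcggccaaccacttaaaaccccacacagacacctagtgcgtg
RefSeq start windows were at hand for 22 of the 39 genes, 24 windows in all since Hoxa10 and Hoxd11 have 2. The composition of the 4 differed: GC content was 44.4 percent in Hoxd8, 40.4 percent in Hoxd4, 63.6 percent in Hoxa5 and 58.0 percent in Hoxb4, and CpG pairs numbered 6, 3, 28 and 14. The median was 58.6 percent GC and 12.5 CpG over the Hox windows and 52.4 percent and 6 over all 32851 windows. The 6 motifs searched on both strands were the TATA box, the CCAAT box, the GC box GGGCGG, the homeodomain core TAATTA, the Hox-Pbx composite TGATTNAT and a retinoic acid direct repeat of the DR5 type. A CCAAT box stood 62 to 58 bases before the start of Hoxd8, and further out in Hoxd4 and Hoxa5. A TATA box in reverse stood 10 to 5 bases before the start of Hoxd4. The window of Hoxb4 held no match, and no matches overlapped in the 4 windows. The CCAAT box was in 14 of the 24 Hox windows (58.3 percent) and 33.8 percent of all windows, and the TATA box in 4 (16.7 percent) and 12.4 percent. The GC box was in 10 Hox windows (41.7 percent) and 32.7 percent of all. The homeodomain core and the Hox-Pbx composite were each in 2 Hox windows (8.33 percent) and in 4.84 and 2.82 percent of all, and the direct repeat in no Hox window and 0.00913 percent of all. These are letter matches, not binding sites.

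Basal and luminal cells were then compared by limma's moderated test on log2(TMM-scaled value + 8), a scale that understates changes of low genes. Without a filter on low values, 32 Hox genes could be tested. In CD1 mice 19 of them were higher in basal cells and 0 lower, at a Benjamini-Hochberg adjusted p under 0.05, while 13.6 percent of all 32442 genes tested were higher. In DNp63 mice 21 were higher and 0 lower, against 14.3 percent of all genes. The median log2 difference of the 32 was 1.65 in CD1 and 1.96 in DNp63, beside 0.00 over all genes in both. With the filter used for the fit as fixed, a minimum of 40 reached by 2 or more libraries, 13 Hox genes and 16900 genes were tested. Of the 13, 12 were higher and 0 lower in basal cells of CD1 mice, where 24.6 percent of all genes were higher and 19.7 percent lower. In DNp63 mice it was 12 and 0 again, beside 26.7 and 21.3 percent of all genes. Since 11 of the 13 passed through basal libraries only, the filter favoured genes higher in basal cells, and nothing is read from that count. Hoxb3 and Hoxb4 passed on luminal libraries as well.

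The differences that follow come from the fit with the filter. For genes that passed through basal libraries only, the p-values of that fit add no support. Hoxd8 had the largest differences, 5.32 ± 0.30 (SE) in CD1 and 4.19 ± 0.30 in DNp63 (limma adjusted p = 5.03e-06 and 1.23e-05). Without the filter it differed by 5.31 and 4.13 (limma adjusted p = 3.72e-05 and 7.57e-05). Genes called with the filter were also called without it, except Hoxc6 in CD1 (1.76, limma adjusted p = 0.0762). Hoxd9 followed with 4.35 ± 0.41 in CD1 and 3.51 ± 0.41 in DNp63 (limma adjusted p = 6.92e-05 and 0.00019). Hoxa5 was higher by 3.05 ± 0.32 and 3.68 ± 0.32 (limma adjusted p = 0.000118 and 3.49e-05). Hoxb4 rose by 1.39 ± 0.35 in CD1 and 2.06 ± 0.35 in DNp63 (limma adjusted p = 0.0123 and 0.00162). The other 8 called genes, Hoxa3, Hoxa7, Hoxb6, Hoxb7, Hoxb8, Hoxc6, Hoxc8 and Hoxd4, differed by 1.76 (Hoxc6) to 3.31 (Hoxa7) in CD1 and by 1.95 (Hoxc8) to 3.56 (Hoxb6) in DNp63. Hoxb3 was not called: 0.93 in CD1 (95% interval 0.17 to 1.69, limma adjusted p = 0.0503) and 0.48 in DNp63 (-0.28 to 1.24, adjusted p = 0.271). It was called in CD1 without CD1 luminal library 1 (1.165, adjusted p = 0.0493). Calls of Hoxb4, Hoxc6, Hoxb8 and Hoxc8 were lost in fits with 1 library left out. Hoxb7 and Hoxb8 also fell below the filter, and so out of the test, without DNp63 basal library 1. The same held for Hoxb7 without CD1 basal library 1 and for Hoxb8 without CD1 basal library 2. In CD1, Hoxb4 was 0.99 without CD1 luminal library 2 (adjusted p = 0.0623) and 1.20 without CD1 basal library 1 (0.0818). Hoxc6 in CD1 was 1.27 without CD1 luminal library 1 (adjusted p = 0.176) and 1.14 without CD1 basal library 2 (0.211), and missed the threshold without either DNp63 luminal library too (0.0535 and 0.0524). In the cases that follow, the differences of Hoxb8 and Hoxc8 themselves hardly moved. For Hoxb8 these cases leave out luminal libraries only, while its DNp63 basal values were 81 and 10. Hoxb8 was not called in CD1 without either CD1 luminal library (2.45 in both, adjusted p = 0.0558 and 0.0522, against 2.45 with all libraries), nor in DNp63 without either DNp63 luminal library (2.33 in both, adjusted p = 0.0828 and 0.0823, against 2.35). Hoxc8 was not called in DNp63 without any 1 of the 4 DNp63 libraries (1.89 to 1.97, adjusted p 0.0501 to 0.058, against 1.95). Cells sorted per library differed between the gates as well, 5000 against 40000, and cannot be told apart from the gate. The part of the endothelial, pericyte, adipocyte and nerve cells, whose marker sums were also higher in basal libraries, was not tested.

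**Figure D3:**
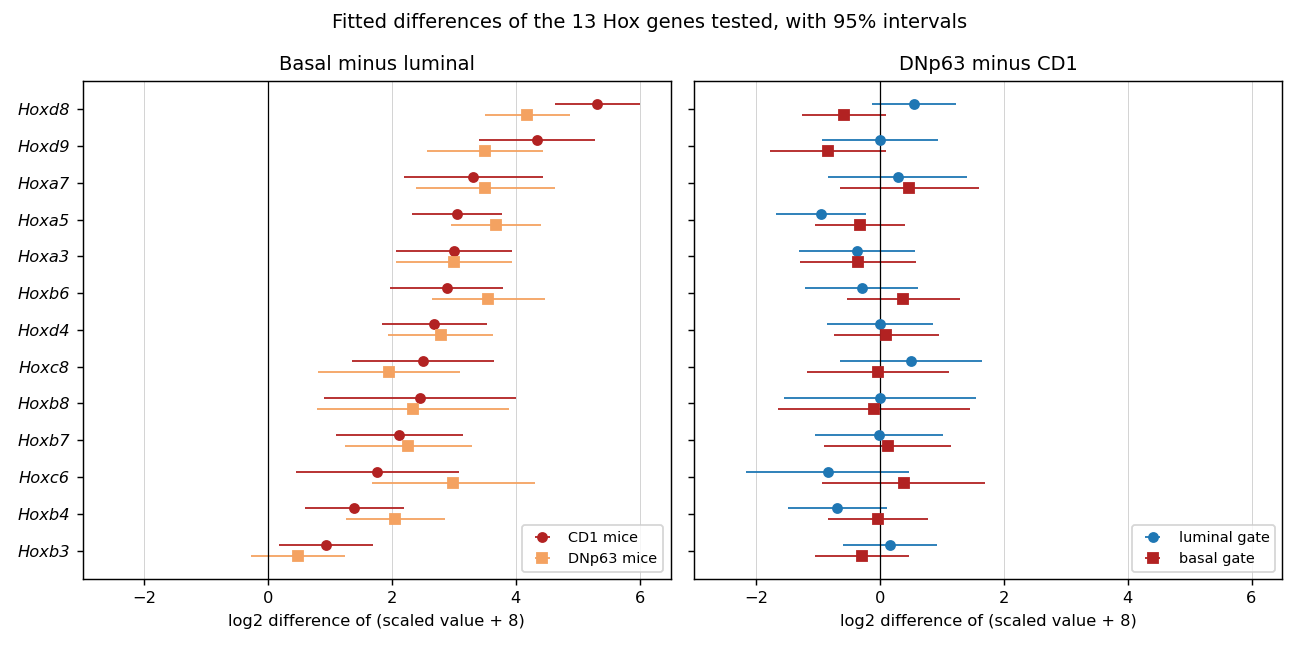
Fitted log2 differences of the 13 Hox genes that passed the filter, with 95% intervals, for basal minus luminal cells (left, CD1 circles and DNp63 squares) and for DNp63 minus CD1 (right, luminal circles and basal squares). On the left Hoxd8 has the largest differences, 5.32 and 4.19. Of the 13 genes, 11 passed the filter through basal libraries only, a choice that favours points to the right of 0. On the right no gene was called.

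Levels of different genes can be compared roughly per kb of exon. The length counts all annotated exons of a gene, used or not, such as 5580 bases for Hoxa9. Reads on bases shared with other genes may be miscounted, as in Hoxd4 (52.3 percent shared on the same strand) and Hoxb3 (52.9 percent antisense). In basal cells the mean value per kb was 163 for Hoxd8, 92.4 for Hoxa5, 79.4 for Hoxd9, 68.4 for Hoxb4 and 48.1 for Hoxa6, which is short at 874 exon bases. Hoxb6 and Hoxa7 followed at 37.9 and 31.1 per kb, and Hoxc6, the highest of HoxC, at 25.4.  In luminal cells Hoxb4 led with 20.3 per kb, then Hoxb3 with 9.94, Hoxa5 with 5.73 and Hoxb2 with 5.66. Hoxd8 was at 3.46 per kb there. Among paralogs numbered 4 in basal cells, Hoxb4 at 68.4 per kb was followed by Hoxd4 at 15.1, Hoxc4 at 11.6 and Hoxa4 at 9.88. Among those numbered 9, Hoxd9 at 79.4 was followed by Hoxb9 at 11.4, Hoxc9 at 9.16 and Hoxa9 at 2.02. Only 5 of the 39 genes had a read in every library.

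**Figure D4:**
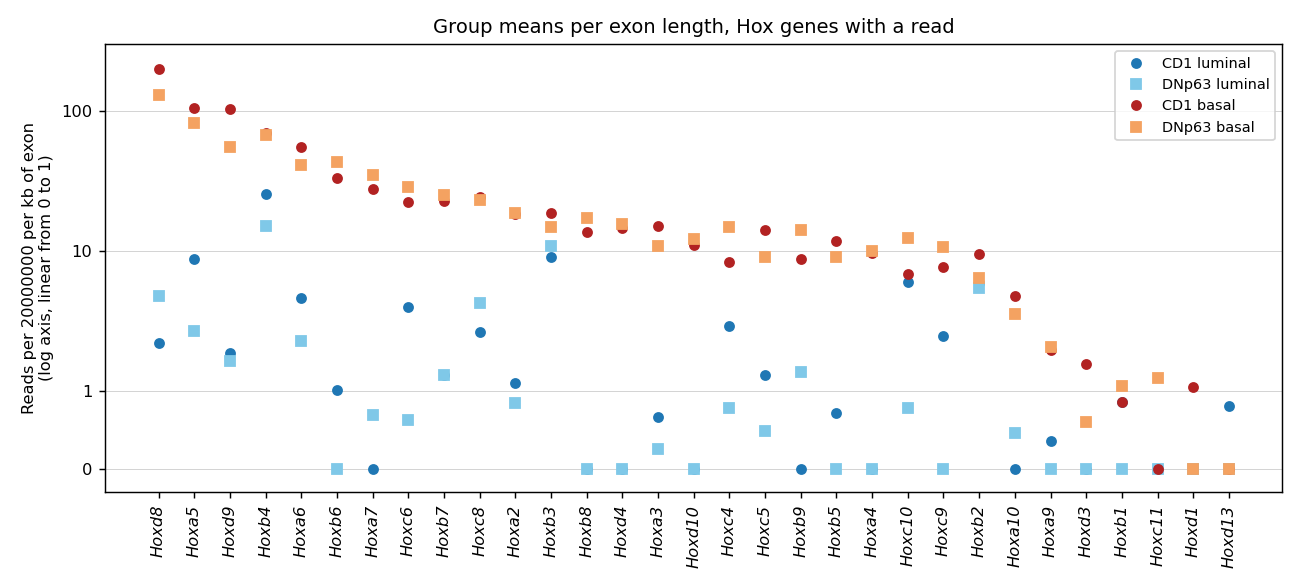
Mean reads per 20000000 per kb of exon (log axis, linear from 0 to 1) of Hox genes with a read, for the 4 groups, ordered by the basal mean. The order starts with Hoxd8, Hoxa5, Hoxd9 and Hoxb4 (163, 92.4, 79.4 and 68.4 per kb), and among genes above 10 per kb in basal cells the luminal points come nearest to the basal ones at Hoxb3 (9.94 against 16.7) and Hoxb4 (20.3 against 68.4).

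The comparisons of DNp63 with CD1 cells ask whether the induced p63 form goes with a change of Hox genes within a gate. No Hox gene was called in the luminal gate, where limma called 4.36 percent of all genes, nor in the basal gate, where it called 0.651 percent. Of the 13 genes tested, 11 passed the filter through basal libraries only and stood at 0 to 18 in luminal ones, Hoxb8 and Hoxd4 at 0 in all 4, so a luminal fall could hardly show in most of them. With both luminal groups fitted alone 2 Hox genes passed the filter and neither was called. At an unadjusted p under 0.05 the count was 1 of 13 in the luminal gate and 0 in the basal gate, beside 17.2 and 11.2 percent of all genes, and limma with voom weights on recovered reads also called 0 in both. The 1 gene was Hoxa5 in luminal cells, at 6 and 4 in DNp63 against 18 and 15 in CD1, a log2 difference of -0.95 (95% interval -1.68 to -0.23, limma adjusted p = 0.157). Hoxd8 differed by 0.55 in luminal cells (-0.13 to 1.23, adjusted p = 0.411) and by -0.58 in basal cells (-1.26 to 0.10, adjusted p = 0.533). Hoxd9 differed by -0.84 in basal cells (-1.78 to 0.10, adjusted p = 0.506), with both DNp63 libraries below both CD1 ones. DNp63 luminal libraries, with Trp63 at 1297 and 1460, held 15 and 12 of summed HoxA and 17 and 16 of summed HoxD, beside 30 and 27 and 16 and 8 in CD1 luminal.

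DNp63 basal cells compared with CD1 luminal cells had 19 of the 32 Hox genes tested without a filter higher and 0 lower, beside 14.3 percent of all genes higher. With the filter it was 12 of 13 and 0, beside 26.4 and 20.5 percent of all genes, and again nothing is read from that count. This comparison shares its libraries with those above. Without the filter Hoxd8 differed by 4.69, Hoxd9 by 3.47, Hoxa5 by 2.69 and Hoxb4 by 1.32, each adjusted p at or under 0.03 by limma. Whether the gate difference itself differed between the mice was tested as an interaction, in which 0.284 percent of all genes were called. No Hox gene was called, and 1 of 13 had an unadjusted p under 0.05, beside 10.5 percent of all genes. That was Hoxd8, whose gate difference was smaller in DNp63 mice, an interaction of -1.13 on the log2 scale (95% interval -2.10 to -0.16, limma adjusted p = 0.365).

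The TALE cofactors, which give Hox proteins much of their DNA specificity, were mostly well expressed in both gates. Of 9 cofactor genes 8 were tested. In basal against luminal cells 4 were higher and 1 lower in each mouse, where 24.6 and 19.7 percent of all genes were higher and lower in CD1 and 26.7 and 21.3 percent in DNp63. Pbx3 stood at 422 to 532 in basal and 67 to 157 in luminal libraries, a log2 difference of 2.49 ± 0.27 in CD1 and 2.07 ± 0.27 in DNp63 (limma adjusted p = 0.000139 and 0.000324). Pknox2 (Prep2) was at 371 to 426 in basal libraries and higher there by 2.36 and 1.13 (limma adjusted p = 0.000253 and 0.0108). Meis2 was at 83 to 152 in basal and 8 to 41 in luminal libraries, a difference of 2.11 and 2.08 (limma adjusted p = 0.0167 and 0.0162). Meis1 went the other way, with differences of -1.03 in CD1 and -1.22 in DNp63 (limma adjusted p = 0.00157 and 0.000552): 623 and 695 in CD1 basal, 287 and 373 in DNp63 basal, 1302 and 1401 in CD1 luminal and 814 and 850 in DNp63 luminal. Its 4 groups did not overlap. In DNp63 luminal against CD1 luminal cells 2 cofactors were called, Meis1 at -0.78 (limma adjusted p = 0.0414) and Pknox2 at 1.26 (0.0446). Without the filter neither was called (limma adjusted p = 0.0947 and 0.0873), nor with the 2 groups compared alone (0.0639 and 0.157). Meis1 was not called without scaling either (limma adjusted p = 0.0555), nor Pknox2 with voom (0.0813). Meis1 lost its call in 5 of 8 cases of 1 library left out (adjusted p 0.0691 to 0.195) and Pknox2 in 7 of 8 (0.0762 to 0.306), both of them without either DNp63 luminal library. In the gate comparisons, Meis2 was not called in CD1 without CD1 luminal library 1 or CD1 basal library 2 (adjusted p = 0.0868 and 0.103), nor in DNp63 without luminal library 2 or any 1 basal library of those mice (0.0663 to 0.107). Pknox2 was not called in DNp63 without DNp63 luminal library 1 or DNp63 basal library 2 (adjusted p = 0.0821 and 0.0805).

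Of 34 Polycomb and Trithorax genes, all tested, 3 were higher and 5 lower in the basal gate of CD1 mice, and 5 and 5 in that of DNp63 mice. These are smaller shares than those over all genes, 24.6 and 19.7 percent in CD1 and 26.7 and 21.3 percent in DNp63. Cbx6 and Cbx2, chromobox readers of histone methylation in Polycomb complexes, were among those higher. Cbx6 had luminal values of 362 and 478 in CD1 and 1019 and 1190 in DNp63 mice, and basal values of 1177 and 1278 in CD1 and 1615 and 2074 in DNp63 mice. Its gate difference was 1.54 in CD1 and 0.83 in DNp63 (limma adjusted p = 0.000336 and 0.00748). It was also the 1 regulator called between the luminal groups, at 1.30 (limma adjusted p = 0.00876), a call lost without DNp63 luminal library 2 (adjusted p = 0.095). Cbx2 was higher in basal cells by 2.09 and 1.49 (limma adjusted p = 0.00763 and 0.0314). Cbx2 was uneven in DNp63 basal cells, at 60 and 165. Its call there was lost without the filter and with voom (limma adjusted p = 0.0715 and 0.0554). It was also lost without DNp63 basal library 2 or DNp63 luminal library 2, with differences of 0.78 and 1.11. The same held without either CD1 basal library, where the difference was 1.46. The gate call of Cbx6 in DNp63 was lost without DNp63 luminal library 1 or DNp63 basal library 2 (adjusted p = 0.0552 and 0.063). Among those lower in basal cells were Phc2, a Polycomb subunit, at -0.55 in CD1 and -0.58 in DNp63 (limma adjusted p = 0.00848 and 0.00607), and Dpy30, a subunit of Kmt2 complexes, at -0.59 and -0.82 (0.0357 and 0.00773). In CD1 the call of Phc2 was lost without CD1 basal library 2 (adjusted p = 0.0709), and that of Dpy30 without any 1 library other than CD1 luminal library 2 (0.0522 to 0.173). Ezh2, Suz12 and Eed, the core of Polycomb repressive complex 2, were not called in either mouse, with CD1 differences of -0.12, -0.14 and 0.02.

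Noncoding genes of the clusters were mostly near 0. Of 17 measured, Hoxd3os1 alone passed the filter. It is antisense to Hoxd3 and Hoxd4 and was at 42, 28, 22 and 49 in basal libraries and at 0 apart from 4 in CD1 luminal library 2. Hotair and Hottip had no read, and the microRNA genes Mir10a, Mir10b, Mir196a-1, Mir196a-2, Mir196b and Mir615 were at 0 to 5, in libraries that were not made for small RNA. Of 16 genes that flank the clusters 13 were tested, and 2 were higher and 3 lower in CD1 basal cells, 1 and 4 in DNp63. The shares over all genes were 24.6 and 19.7 percent in CD1 and 26.7 and 21.3 percent in DNp63. Next to HoxA, Skap2 was lower in basal cells, at -0.63 and -1.11 (limma adjusted p = 0.00465 and 0.000202), and Snx10 at -1.18 and -1.36 (0.00683 and 0.0031). Next to HoxC, Calcoco1 was higher by 0.89 and 1.14 (limma adjusted p = 0.0203 and 0.00605). In CD1 the call of Calcoco1 was lost without CD1 luminal library 1 or CD1 basal library 2 (adjusted p = 0.112 in both), and that of Snx10 without CD1 basal library 2 (0.0518). Skap2 was the 1 neighbour called between DNp63 basal and CD1 basal cells, at 519 and 479 against 870 and 851, a difference of -0.76 (limma adjusted p = 0.0492). Without any 1 of these 4 libraries it was not called (adjusted p 0.144 to 0.254).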

How the data were processed

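The deposited table held score values for 8 libraries, 2 per group, grouped by strain and surface markers in the labels. The submitters' processing notes name STAR, HTSeq and the build GRCm38 (mm10), with no version or strand setting in the sources used here. The authors had scaled the reads to 20000000 per library and rounded them up, as the name given in the labels and the values show, so count models were not used. Dividing by the value of 1 read recovered whole reads for 100 percent of values up to 400, against 20.68 to 36.03 percent by chance. Read ratios and their exact binomial intervals use these reads.

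TMM factors (trims 30 and 5 percent) were applied to the values and a pseudocount of 8 was added. A limma fit (version 3.58.1, R 4.3.3) of 4 group means to log2 values of all 8 libraries used the intensity trend and had 4 residual degrees of freedom with 4.631 from the prior. Genes at 40 or more in 2 or more libraries were tested (16900), two-sided, and called at a Benjamini-Hochberg adjusted p under 0.05 over all genes. The fit was also run on simulated data in which only genes with a mean above the filter value were changed. This does not show how it performs for genes near 0 in luminal libraries. Within each group the libraries differed beyond sampling noise, with a chi-square of 6.34 to 16.5 per degree of freedom. Gene positions, exon lengths and overlaps came from GENCODE M21 (49412 genes matched).

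The members, gene lists and tests were chosen with earlier results of these data known. The lists were 9 cofactor, 34 chromatin regulator, 17 noncoding and 16 neighbouring genes in the table, and markers of luminal, basal, endothelial, pericyte, fibroblast, adipocyte, immune, Schwann or nerve and skeletal muscle cells. Of 10 immune and 4 skeletal muscle markers, 2 and 1 were higher in every basal library than in every luminal one. Every member entered the counts and sums, but the values of some items are not reported here. Members called in a comparison or highest in their cluster have values for each library, and up to 3 called genes per list, direction and comparison with the largest differences could be named. Ezh2, Suz12, Eed, Hotair, Hottip, Hoxb3os and the microRNAs were named outside that rule, after their values were seen. Alternatives were other scalings, pseudocounts and filters, voom on recovered reads, the 2 groups compared alone, replicate blocks and leaving out each library.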

Additional observations from a re-analysis of the deposited data

How the results depend on the processing

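The number of Hox genes called higher in basal cells moved by over 1.5 times with the filter on low values. Without a filter it was 19 in CD1 mice, 19 for DNp63 basal against CD1 luminal and 21 in DNp63 mice, of 32 genes tested, and with a filter of 100 in 2 libraries it was 5 in each of these 3 comparisons, of 5 genes tested. Leaving out 1 library gave 10 to 12, 8 to 12 and 9 to 12 genes. Other scalings, pseudocounts of 1 and 32 and voom gave 11 or 12, and the 2 groups compared alone 9, 10 and 10. Hoxc6 lost its call in CD1 with a pseudocount of 1 and with voom (limma adjusted p = 0.0777 and 0.058). Hoxc8 lost its call in DNp63 with a pseudocount of 1 (limma adjusted p = 0.107). With a pseudocount of 32, Hoxb8 was not called in CD1 and Hoxb3 was (limma adjusted p = 0.0533 and 0.0404). No Hox gene was called in the comparisons of DNp63 with CD1 cells or in the interaction under any alternative run. The difference of Hoxd9 between DNp63 and CD1 luminal cells, 0.00, turned to -0.004 with median-of-ratios scaling, -0.018 with a pseudocount of 32, -0.001 with the filter of 100, and ranged from -0.50 to 0.50 with 1 library left out, without CD1 luminal library 2 and library 1. That of Hoxb4 in basal cells ranged from -0.268 to 0.162, without CD1 basal library 2 and library 1. The causes were not tested.

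Libraries share replicate numbers, and the labels do not say that a number marks a shared animal. Deviations of same-numbered libraries correlated at 0.34 between CD1 luminal and CD1 basal and at 0.267 between DNp63 luminal and DNp63 basal, and at -0.015 to 0.041 across mice. With the replicate block 12 Hox genes were called in each comparison of basal with luminal cells and 0 in the others. A replicate block within each mouse line, chosen after seeing the data, gave the same counts. At this depth a gene without a luminal read can have had a level of up to 2.57 over the 4 luminal libraries.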
